A study of Mus musculus with 15 samples.

Results

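The genes described here encode the erythropoietin receptor and the proteins that carry or restrain its signal: the receptor Epor, its kinase Jak2, the transcription factors Stat5a and Stat5b, the feedback inhibitors Cish, Socs2 and Socs3, the survival factors Bcl2l1 and Pim1, and the Src-family kinase Lyn. They were listed by name from the known pathway, with earlier results of these data known. Of the 10 genes, 9 had a transcript cluster in the deposited table, with 11 clusters in all among the 23410 that carry a gene symbol. Lyn was not analysed here. Socs2 and Socs3 had 2 clusters each, and the brighter one stands for the gene.

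Signals were measured on 15 Affymetrix mouse arrays with RNA from the livers of E13.5 embryos of strain FVB/NJ, after magnetic selection of cells for TER119, an antigen of maturing erythroid cells. There were 4 wild-type samples, 4 with genotype Klf8gt/gt (a gene trap in Klf8, called Klf8-trap here), 3 with genotype Klf3-/- (Klf3-null) and 4 with genotype Klf3-/- Klf8gt/gt (doubly mutant). KLF3 and KLF8 are related zinc finger repressors that recruit CtBP to CACCC-type sites, and the design asks what the loss of each, and of both, does to erythroid transcripts. Each value is a log2 signal, so a difference of 1 is a doubling, and levels of different genes cannot be set against each other because their probes differ.

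In erythroid progenitors, erythropoietin brings pairs of receptor chains together, and the JAK2 molecules bound to them phosphorylate each other, the receptor and STAT5. STAT5 then enters the nucleus and switches on survival genes and its own inhibitors, so that CIS and the SOCS proteins limit the signal while BCL-XL keeps maturing erythroblasts alive. In the fetal liver this pathway is needed for definitive erythropoiesis, and its receptor declines as erythroblasts mature.

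No receptor pathway gene passed the threshold (limma, adjusted p below 0.05 over all tested clusters) in any of 7 contrasts. The counts that follow take the brighter cluster of Socs2 and of Socs3. In the contrast of Klf3-null with wild type, 0 of 9 passed, against 0.585% of all tested clusters, and Cish alone had an unadjusted p below 0.05 (background 7.83%). In Klf8-trap against wild type 0 passed (background 0%), and 0 had an unadjusted p below 0.05 (13.4%). In doubly mutant against wild type 0 passed (3.3%), while Jak2 and Bcl2l1 were lower and Cish was higher at an unadjusted p below 0.05 (17.9%). In doubly mutant against Klf8-trap 0 passed (3.35%), and Jak2 alone had an unadjusted p below 0.05 (18.7%). In doubly mutant against Klf3-null 0 passed (0.047%), as in the interaction of both genotypes (0.00427%), with 0 at an unadjusted p below 0.05 in both (12.9% and 14.4%). With the effect of Klf3 loss averaged over both Klf8 backgrounds, 0 passed (2.38%), while Jak2 and Cish had an unadjusted p below 0.05 (11.3%).

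**Figure D1:**
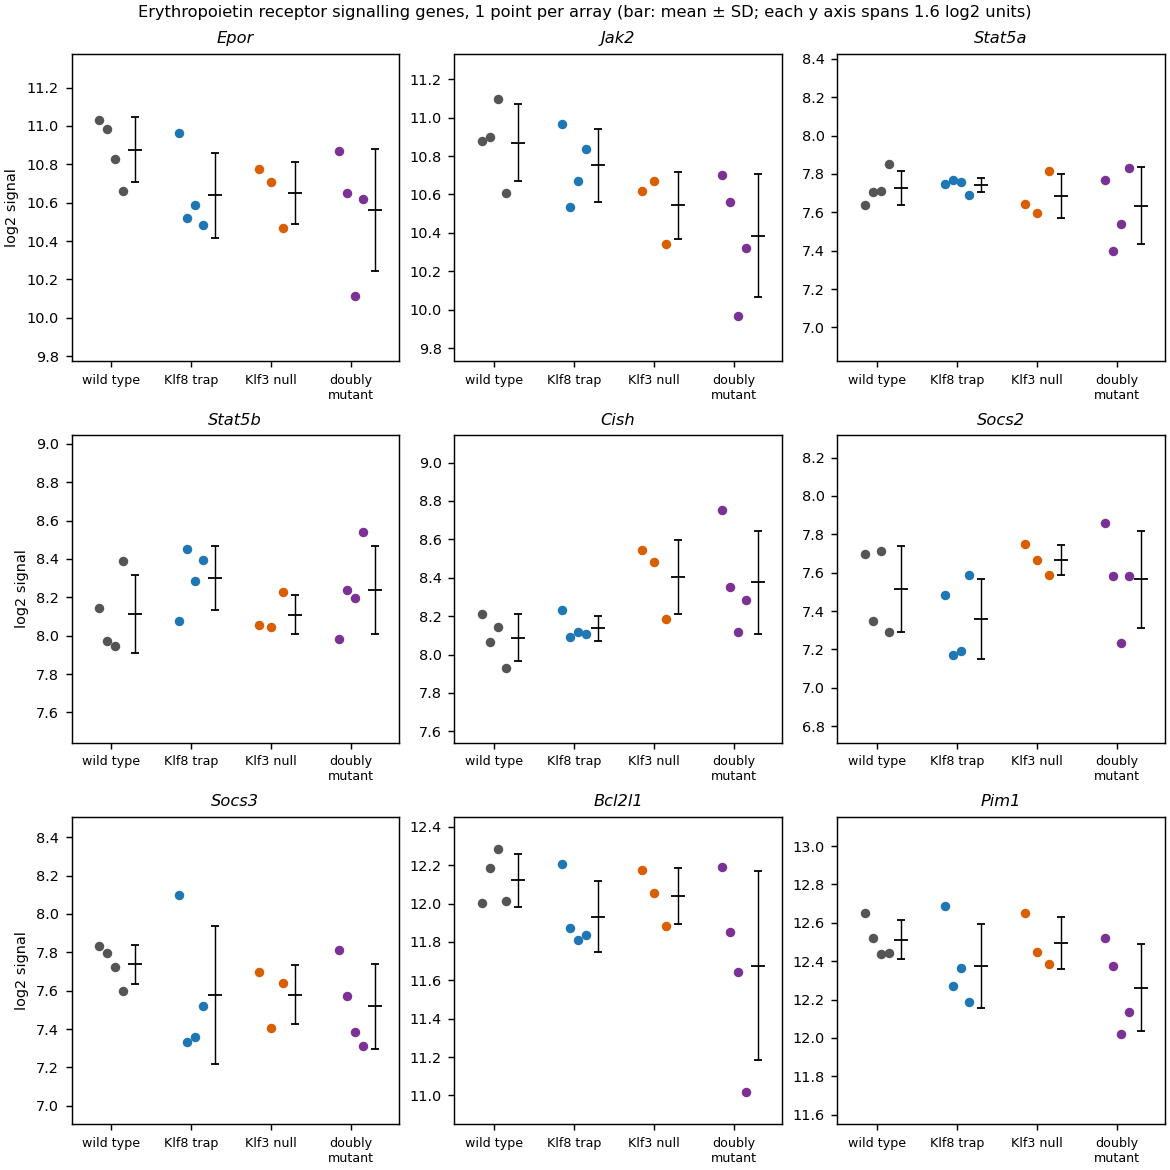
Log2 signal (y axis, 1.6 log2 units in every panel) of the 9 receptor pathway genes on each array, by genotype (x axis). Points are arrays in replicate order and bars are the mean ± SD; in each panel the points of every mutant group overlap those of wild type, and the doubly mutant arrays spread widely for Epor, Jak2 and Bcl2l1.

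By the cluster that stands for each gene, the groups overlapped for all 9 genes in each of these pairwise comparisons. The shares of all clusters without overlap were 14.5% for Klf3-null and wild type, 5.36% for Klf8-trap and wild type, and 8.4% for doubly mutant and wild type. They were 7.33% for doubly mutant and Klf8-trap, and 9.95% for doubly mutant and Klf3-null. The dim second cluster of Socs2 did not overlap between doubly mutant and Klf8-trap arrays, nor that of Socs3 between Klf8-trap and wild-type arrays. Nor did any gene separate all 7 Klf3-deficient from all 8 Klf3-intact arrays (1.15%). The median difference of the 9 genes from wild type was -0.04 in Klf3-null arrays, -0.14 in Klf8-trap arrays and -0.22 in doubly mutant arrays. Over all tested clusters the medians were -0.01, -0.02 and -0.02. These 3 comparisons share the wild-type arrays. The unadjusted 95% intervals of the doubly mutant contrast reached from 0.20 to 0.39 log2 units to either side, depending on the gene. Smaller differences were not resolved, and larger ones could still miss the adjusted threshold. Jak2 at -0.48 (limma adjusted p = 0.098) and Bcl2l1 at -0.44 (0.211) were not called.

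The data were checked as a whole before the genes were compared. All 8 measured late erythroid markers lay above the array median (6.28 to 6.41) on every array, and 0 of 5 lymphoid and mast cell markers did. Markers of other liver cells were present too, with 9 of 9 hepatocyte and at least 12 of 15 macrophage markers above the median on every array of each group. The Klf3 cluster did not fall in arrays labelled Klf3-null: it read 10.27 ± 0.17 (SD, n = 4) in wild type, 11.32 ± 0.14 (SD, n = 3) in Klf3-null and 11.37 ± 0.28 (SD, n = 4) in doubly mutant arrays. It checks nothing if its probes lie outside the deleted part, which the files do not show. Klf8 lay below the array medians in wild-type and Klf8-trap arrays and read 8.71 ± 0.26 (SD, n = 3) in Klf3-null and 7.29 ± 0.55 (SD, n = 4) in doubly mutant arrays. By Y-linked genes and Xist, all 4 wild-type arrays were male, against 2 of 4 Klf8-trap, 1 of 3 Klf3-null and 2 of 4 doubly mutant arrays, although Klf8 is X-linked and every trap sample is labelled gt/gt. Over all clusters the mean correlation of an array to its group mates was 0.995 to 0.996 in wild type and Klf3-null, 0.993 to 0.994 in Klf8-trap arrays apart from replicate 1 (0.988), and 0.986, 0.990, 0.988 and 0.987 in doubly mutant replicates 1 to 4. The labels do not say that arrays are separate embryos, so p-values here reflect array-to-array spread, part of which may be technical. In these bulk samples, fewer cells of a type and less RNA per cell cannot be told apart.

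The receptor was compared first. Epor read 11.03, 10.99, 10.83 and 10.66 in wild-type replicates 1 to 4 and 10.96, 10.52, 10.59 and 10.48 in Klf8-trap replicates. It read 10.78, 10.71 and 10.47 in Klf3-null and 10.87, 10.65, 10.12 and 10.62 in doubly mutant replicates. The highest value was in wild type and the lowest in doubly mutant replicate 3, but 1 Klf8-trap, 2 Klf3-null and 1 doubly mutant array lay within the wild-type range. Group means ran from 10.88 ± 0.17 (SD, n = 4) in wild type through 10.65 ± 0.16 (SD, n = 3) in Klf3-null and 10.64 ± 0.22 (SD, n = 4) in Klf8-trap to 10.56 ± 0.32 (SD, n = 4) in doubly mutant arrays. No neighbours in this order differed beyond their spread. Epor differed from wild type by -0.23 ± 0.16 (SE) in Klf3-null (limma adjusted p = 0.769), by -0.24 ± 0.15 in Klf8-trap (0.487) and by -0.31 ± 0.15 in doubly mutant arrays (95% interval -0.63 to 0.0039; adjusted p = 0.287). With arrays weighted by their quality in the fit, the Klf8-trap difference of Epor was -0.33 and passed (adjusted p = 0.0438), as did 17.4% of all clusters in that fit. The call was made in 1 of 28 alternatives.

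The Epor start region carries the motifs of erythroid promoters: CACCC, the core bound by KLF proteins, and GATAA, the core bound by GATA1. The 150 bases before the start are shown because the genotypes remove proteins that bind CACCC sites. They lie at chr9:21963577-21963726 on the minus strand (RefSeq, GRCm38.p6), and capitals mark CACCC and TTATC, the reverse complement of GATAA.
Epor: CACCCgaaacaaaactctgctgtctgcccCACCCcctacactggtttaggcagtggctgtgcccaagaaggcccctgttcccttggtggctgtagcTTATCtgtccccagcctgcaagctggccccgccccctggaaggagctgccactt
Searches of both strands over the 250 bases before the start found CACCC at 150 and 121 bases before the Epor start and GATAA at 54. Over 32851 promoters of that length, CACCC occurred in 52.0%, GATAA in 22.6% and TTCNNNGAA, the core bound by STAT5, in 7.02%. The RefSeq sequences used here held 13 promoters of 8 of the 10 genes. CACCC was also found in 1 or more promoters of Stat5a, Stat5b, Cish, Socs3, Bcl2l1 and Pim1, and GATAA in Cish and Bcl2l1. The Jak2 window held 0 of the 3 motifs. A match is a string of letters and not evidence of binding.

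Jak2, the kinase bound to the receptor's cytoplasmic tail, had the smallest adjusted p of the pathway genes in doubly mutant arrays. It read 10.88, 10.90, 11.10 and 10.61 in wild-type and 10.97, 10.53, 10.67 and 10.84 in Klf8-trap replicates. It read 10.62, 10.67 and 10.34 in Klf3-null and 10.70, 10.56, 9.97 and 10.32 in doubly mutant replicates. Doubly mutant arrays were the lowest, with 3 of 4 below all wild-type arrays and replicate 1 inside the wild-type range. The means were 10.87 ± 0.20 (SD, n = 4), 10.75 ± 0.19 (SD, n = 4), 10.54 ± 0.18 (SD, n = 3) and 10.39 ± 0.32 (SD, n = 4) for wild type, Klf8-trap, Klf3-null and doubly mutant. The doubly mutant difference from wild type was -0.48 ± 0.15 (95% interval -0.81 to -0.16; limma adjusted p = 0.098; exact two-sided permutation p = 0.0571). Without doubly mutant replicate 1 it was -0.59 and passed (limma adjusted p = 0.0331), as did 5.93% of all clusters. The call was made in 2 of 28 alternatives. With single arrays left out the difference ran from -0.59 to -0.34, with adjusted p up to 0.285. The Klf3-null difference was -0.33 ± 0.16 (adjusted p = 0.670) and that of the Klf8 trap -0.12 ± 0.15 (adjusted p = 0.742). Averaged over both backgrounds, Klf3 loss went with -0.35 ± 0.11 (adjusted p = 0.158), and 3 of 7 Klf3-deficient arrays lay below all 8 Klf3-intact ones.

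STAT5 is the main nuclear effector of the receptor, made from a pair of neighbouring genes. Stat5a read 7.64, 7.70, 7.71 and 7.85 in wild-type and 7.75, 7.77, 7.76 and 7.69 in Klf8-trap replicates. It read 7.65, 7.60 and 7.81 in Klf3-null and 7.77, 7.40, 7.54 and 7.83 in doubly mutant replicates. These values were flat, with a mean of 7.73 ± 0.09 (SD, n = 4) in wild type and 7.64 ± 0.20 (SD, n = 4) in doubly mutant arrays. Klf3 loss went with a Stat5a difference of -0.07 ± 0.07 (95% interval -0.22 to 0.07; limma adjusted p = 0.807), the narrowest interval among the 9 genes. Stat5b read 8.14, 7.97, 7.95 and 8.39 in wild-type and 8.08, 8.45, 8.28 and 8.39 in Klf8-trap replicates. It read 8.06, 8.04 and 8.23 in Klf3-null and 7.98, 8.24, 8.19 and 8.54 in doubly mutant replicates. The highest Stat5b value was in doubly mutant replicate 4, and both the wild-type and doubly mutant groups covered most of the range. Its difference with Klf3 loss was -0.03 ± 0.09 (95% interval -0.23 to 0.16; adjusted p = 0.951).

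Cish, the STAT5-induced inhibitor that docks on the activated receptor, was the pathway gene with the largest positive difference. It read 8.21, 8.07, 8.14 and 7.93 in wild-type and 8.23, 8.09, 8.12 and 8.11 in Klf8-trap replicates. It read 8.55, 8.48 and 8.18 in Klf3-null and 8.75, 8.35, 8.12 and 8.28 in doubly mutant replicates. All 8 Klf3-intact arrays lay between 7.93 and 8.23, and 5 of 7 Klf3-deficient arrays lay above them. Cish differed from wild type by 0.32 ± 0.13 in Klf3-null (95% interval 0.04 to 0.59; limma adjusted p = 0.578), by 0.29 ± 0.12 in doubly mutant (0.03 to 0.54; adjusted p = 0.219) and by 0.05 ± 0.12 in Klf8-trap arrays (adjusted p = 0.873). Averaged over both backgrounds the difference was 0.28 ± 0.09 (0.09 to 0.47), which did not pass over all clusters (limma adjusted p = 0.156). For this single gene the exact two-sided permutation p was 0.00528, comparing pooled means of Klf3-deficient and Klf3-intact arrays regardless of Klf8 genotype. The same test gave 0.00901 for Jak2. These p-values are not adjusted over the genes and contrasts tested, and Cish stood out in these same data. With array weights the averaged difference was 0.29 and passed (limma adjusted p = 0.0383), as did 3.71% of all clusters, a call made in 1 of 27 alternatives.

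Socs2 and Socs3, which block cytokine receptors through their SH2 domains and ubiquitin ligase recruitment, were not called either. Socs2 read 7.70, 7.35, 7.71 and 7.29 in wild-type and 7.48, 7.17, 7.19 and 7.59 in Klf8-trap replicates. It read 7.75, 7.67 and 7.59 in Klf3-null and 7.86, 7.58, 7.24 and 7.58 in doubly mutant replicates. The Klf3-null arrays were close together at 7.67 ± 0.08 (SD, n = 3), inside the spread of the other groups. Klf3 loss went with 0.18 ± 0.10 (95% interval -0.04 to 0.40; limma adjusted p = 0.576). The second Socs2 cluster, dimmer than the array medians, was higher in doubly mutant than in Klf8-trap arrays by 0.31 ± 0.09 with no overlap (adjusted p = 0.0731). With Klf3 loss averaged, the difference of this cluster was 0.23 ± 0.07 and was not called (limma adjusted p = 0.102). Of the Klf3-deficient arrays, 3 of 7 lay above all 8 intact ones (unadjusted exact two-sided permutation p = 0.00155 for the pooled means). Socs3 read 7.83, 7.80, 7.72 and 7.60 in wild-type and 8.10, 7.33, 7.36 and 7.52 in Klf8-trap replicates. It read 7.70, 7.40 and 7.64 in Klf3-null and 7.81, 7.57, 7.39 and 7.31 in doubly mutant replicates. Klf8-trap replicate 1 held the highest Socs3 value, while the other 3 arrays of that group lay below all wild-type arrays. The Klf8-trap difference was -0.16 ± 0.15 (adjusted p = 0.652). With array weights it was -0.32 and passed (adjusted p = 0.0468), and without that array and doubly mutant replicate 1 together it was -0.33 (adjusted p = 0.0397). These fits called 17.4% and 12.5% of all clusters, and the call was made in 2 of 28 alternatives. The second, dim Socs3 cluster gave -0.33 ± 0.10 for the Klf8 trap, with no overlap and no call (adjusted p = 0.251).

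The Socs3 promoter is shown because, among the 13 promoters searched, of 8 of the 10 genes, it was the only one with the STAT5 core. The 160 bases lie at chr11:117969367-117969526 on the minus strand (RefSeq, GRCm38.p6), and capitals mark TTCNNNGAA, which starts 154 bases before the start.
Socs3: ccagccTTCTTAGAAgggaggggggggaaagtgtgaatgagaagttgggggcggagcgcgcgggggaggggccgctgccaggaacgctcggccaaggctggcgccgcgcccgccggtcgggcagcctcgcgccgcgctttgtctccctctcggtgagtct

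Bcl2l1 encodes BCL-XL, the anti-apoptotic protein that erythroblasts need late in maturation. It read 12.00, 12.19, 12.28 and 12.01 in wild-type and 12.20, 11.87, 11.81 and 11.83 in Klf8-trap replicates. It read 12.17, 12.06 and 11.88 in Klf3-null and 12.19, 11.85, 11.64 and 11.02 in doubly mutant replicates. The doubly mutant arrays held both a value as high as wild type and the lowest value of all, so their SD was the largest among the 9 receptor pathway genes (11.68 ± 0.49, n = 4, against 12.12 ± 0.14, n = 4, in wild type). The doubly mutant difference was -0.44 ± 0.18 (95% interval -0.84 to -0.05; limma adjusted p = 0.211). It passed without doubly mutant replicate 1 (-0.62, adjusted p = 0.0395) and with the macrophage marker mean as a covariate (-0.98, adjusted p = 0.0359), fits that called 5.93% and 1.75% of all clusters. The call was made in 3 of 28 alternatives. With single arrays left out the difference ran from -0.62 to -0.23, with limma adjusted p up to 0.403. Klf3-null and Klf8-trap arrays differed from wild type by -0.08 ± 0.20 (adjusted p = 0.936) and -0.19 ± 0.18 (adjusted p = 0.655).

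Pim1, a STAT5-induced serine/threonine kinase that supports survival, read 12.65, 12.52, 12.44 and 12.44 in wild-type and 12.69, 12.27, 12.36 and 12.19 in Klf8-trap replicates. It read 12.65, 12.45 and 12.39 in Klf3-null and 12.52, 12.37, 12.02 and 12.14 in doubly mutant replicates. Replicate 1 was the highest array of every group, wild type included, as for Epor, Cish and Socs3. For Bcl2l1, replicate 1 was the highest of each mutant group but the lowest of wild type (12.00). Of the doubly mutant arrays, 3 of 4 lay below all wild-type arrays. The doubly mutant difference was -0.25 ± 0.12 (95% interval -0.51 to 0.01; limma adjusted p = 0.304). Without doubly mutant replicate 1 and Klf8-trap replicate 1 together it was -0.34, at the edge of the threshold (adjusted p = 0.04999), a call made in 1 of 28 alternatives. In that fit Jak2 (0.0213) and Bcl2l1 (0.0233) passed as well, as did 9.65% of all clusters. Both left-out arrays were the highest of their groups for Pim1, Jak2 and Bcl2l1. Leaving them out therefore lowered the mutant means, while wild-type replicate 1 was kept. Pim1 differed from wild type by -0.02 ± 0.13 in Klf3-null arrays (adjusted p = 0.981).

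**Figure D2:**
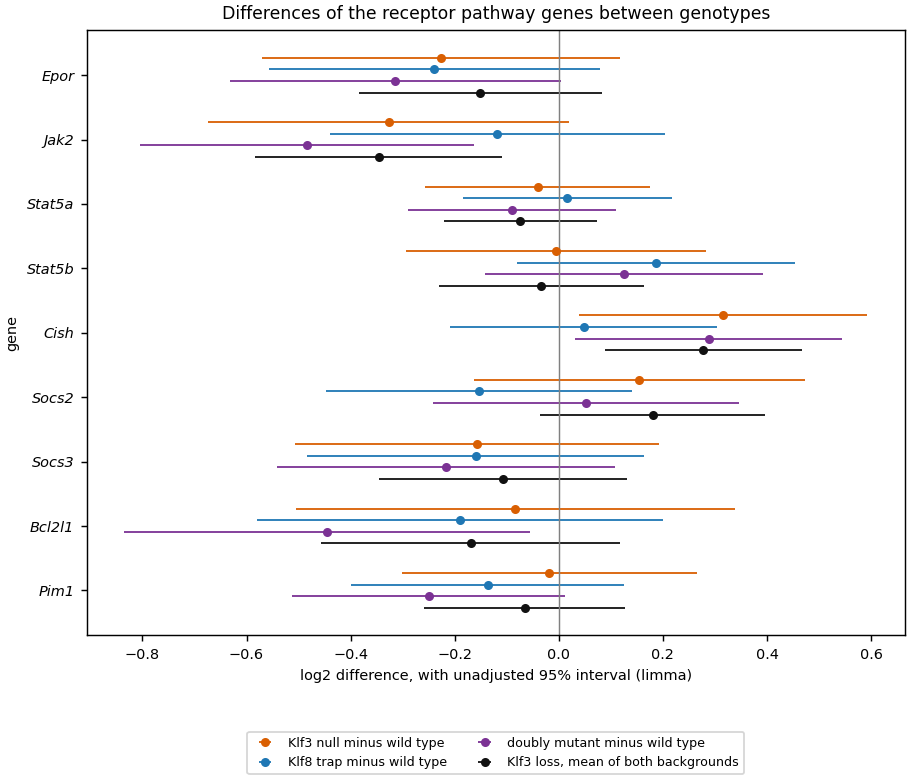
Differences in log2 signal (x axis) of each receptor pathway gene (y axis) for the 3 mutant groups against wild type and for Klf3 loss averaged over both Klf8 backgrounds, with unadjusted 95% intervals from limma. Jak2 and Bcl2l1 lie lowest in doubly mutant arrays (-0.48 and -0.44), Cish lies above 0 in all 3 contrasts with Klf3 loss, and none passes after adjustment.

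Levels of cell type markers were also compared between genotypes. The mean of the 8 late erythroid markers was 12.63 (12.52 to 12.74) in wild type, 12.46 (12.37 to 12.65) in Klf8-trap, 12.47 (12.30 to 12.55) in Klf3-null and 12.14 (11.69 to 12.51) in doubly mutant arrays, and 2 of 8 fell in doubly mutant against wild-type arrays (background lower 1.78%). The mean of the 15 macrophage markers was 9.11 (9.005 to 9.30), 8.79 (8.53 to 9.06), 8.75 (8.43 to 8.91) and 8.05 (7.24 to 8.90) in the same order, and 6 of 15 fell in doubly mutant arrays (1.78%). The mean of the 6 stromal markers was 9.06 (8.97 to 9.12) in wild type and 9.40 (9.13 to 9.60) in doubly mutant arrays. There 2 of 6 rose (background higher 1.52%) and 4 had an unadjusted limma p below 0.05 (17.9%). The doubly mutant arrays were not ranked alike by both lists: replicate 1 was lowest for macrophage markers (7.24) and highest of its group for late erythroid markers (12.51), and replicate 4 was the reverse (8.90 and 11.69). Hepatocyte markers averaged 12.34 in wild type and 12.93 (12.51 to 13.15) in Klf8-trap arrays. There 0 of 9 passed (background 0%) and 8 had an unadjusted limma p below 0.05 (13.4%). The part of these cells in the differences above was not tested.

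Bcl2l1 followed the late erythroid markers closely from array to array. Over 15 arrays Pearson's r was 0.964 and Spearman's rho 0.864 (permutation p = 1e-05 for r, the smallest 100000 resamples can give, and 7e-05 for rho; 0.00027 and 0.00063 adjusted over 27 relations of 9 genes and 3 lists). Without the 2 arrays farthest from the median of the markers r was 0.889, and within groups it was 0.979. Jak2 followed them with r = 0.806 and rho = 0.886 (adjusted permutation p = 0.00277 and 0.00054), 0.840 without the 2 farthest arrays and 0.700 within groups. Stat5b ran the other way, with r = -0.681 and rho = -0.714 (adjusted permutation p = 0.0136 and 0.0106), -0.688 without the 2 farthest arrays and -0.827 within groups. Epor rose with the late erythroid markers, with r = 0.629 and rho = 0.821 (adjusted permutation p = 0.0419 and 0.00194), 0.778 without the 2 farthest arrays and 0.521 within groups. It ran inversely to the 6 progenitor markers, with r = -0.811 and rho = -0.871 (adjusted permutation p = 0.00122 and 0.00054). The latter r was -0.844 without the 2 farthest arrays and -0.835 within groups. Socs3 and Pim1 had the same signs, with r = 0.656 and 0.749 for late erythroid markers (adjusted permutation p = 0.0205 and 0.00551). For progenitor markers r was -0.831 for Socs3, -0.707 for Pim1 and 0.691 for Stat5b (adjusted permutation p = 0.00126, 0.0138 and 0.0156). No pathway gene had an adjusted permutation p below 0.05 with the macrophage markers. All these permutations shuffled the 15 arrays regardless of genotype. Within groups, r with the macrophage markers ran from -0.688 for Bcl2l1 (0.0495 pooled) to 0.502 for Stat5b (0.132 pooled), without a test. All values of an array share its RNA, labelling and scaling.

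**Figure D3:**
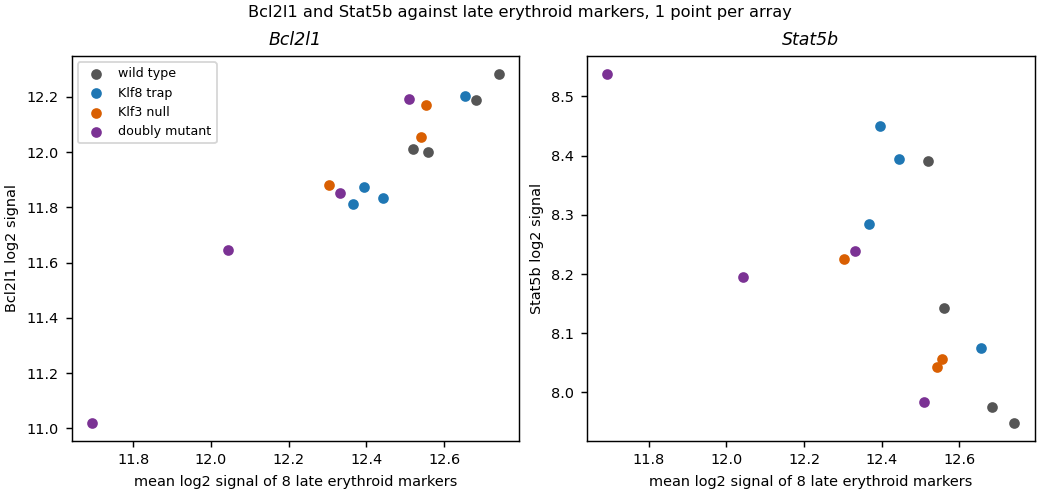
Log2 signal of Bcl2l1 (left) and Stat5b (right) against the mean log2 signal of 8 late erythroid markers (x axis), 1 point per array, coloured by genotype. Bcl2l1 rises with the markers (r = 0.964) and Stat5b falls (r = -0.681); doubly mutant replicate 4 is at the left end of both panels.

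Many of the pathway genes varied together from array to array. With group means removed, Epor correlated with Pim1 (r = 0.888), Cish (0.830) and Jak2 (0.817) over the 15 arrays, and Jak2 with Socs2 (0.841). Epor and Cish were nearly unrelated when genotypes were pooled (0.271). Stat5b correlated with Bcl2l1 at -0.838 and with Stat5a at only 0.337. Of 11987 clusters above the lowest array median, those most like Epor over the 15 arrays were Ttll12 (r = 0.964), Abcb10 (0.954), which encodes a mitochondrial transporter of erythroid cells, and Ip6k1 (0.951), an inositol hexakisphosphate kinase. These correlations are descriptions, given without a test.

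The wider pathway was taken from 5 lists holding 69 genes, of which 59 were measured: adaptors and kinases, negative regulators, erythropoietin-responsive genes, related receptors with their JAKs and STATs, and paralogs of the 10 genes. In Klf3-null against wild-type arrays 1 of 59 fell (background lower 0.0641%) and 0 rose (0.521%). In Klf8-trap arrays 0 passed, with 6 at an unadjusted p below 0.05 (13.4%). In doubly mutant against wild-type arrays 1 rose (1.52%) and 4 fell (1.78%), and against Klf8-trap arrays 2 rose (1.48%) and 1 fell (1.87%). Against Klf3-null arrays and in the interaction 0 passed, with 9 and 5 at an unadjusted p below 0.05 (12.9% and 14.4%). With Klf3 loss averaged, 1 rose (1.45%) and 2 fell (0.931%). By list, the doubly mutant contrast called 2 of 20 adaptors and kinases, 1 of 8 negative regulators, 1 of 12 erythropoietin-responsive genes, 0 of 9 related receptors, JAKs and STATs, and 1 of 10 paralogs.

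**Figure D4:**
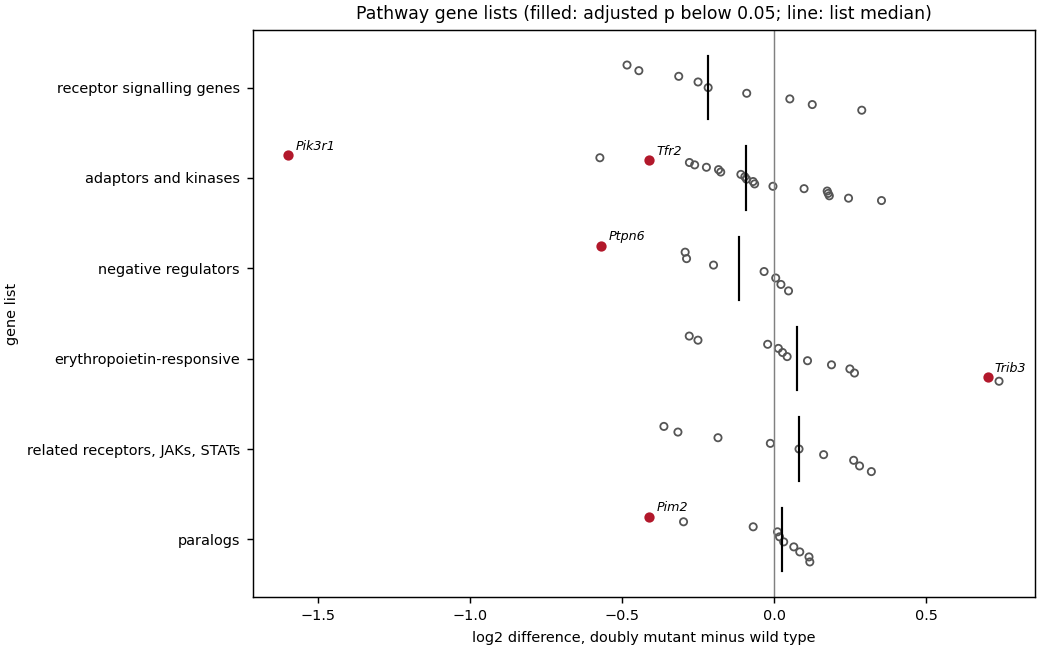
Difference in log2 signal between doubly mutant and wild-type arrays (x axis) for each measured gene of the receptor pathway list and of 5 wider lists (y axis), 1 point per gene, with the list median as a line and genes past the threshold filled and named. The receptor pathway list holds 0 filled points, and Pik3r1 lies farthest from 0 (-1.60).

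Pik3r1, the regulatory subunit of the phosphoinositide 3-kinase that the activated receptor recruits, had the largest difference among all 59 genes. It read 10.11, 10.27, 10.40 and 9.96 in wild-type and 10.40, 9.82, 9.76 and 10.08 in Klf8-trap replicates. It read 9.36, 9.38 and 8.89 in Klf3-null and 8.72, 8.58, 8.56 and 8.50 in doubly mutant replicates. All 7 Klf3-deficient arrays lay below all 8 Klf3-intact ones, and the doubly mutant arrays lay below the Klf3-null ones. Pik3r1 was 2.69-fold lower in doubly mutant than in Klf8-trap arrays (-1.43 ± 0.14; limma adjusted p = 3.902e-05), and Klf3 loss averaged over both backgrounds lowered it 2.30-fold (-1.20 ± 0.11; adjusted p = 4.477e-06). That call held in 27 of 27 alternatives. The step from Klf3-null to doubly mutant arrays was -0.62 ± 0.16 (adjusted p = 0.131), and it passed without doubly mutant replicate 1 and Klf8-trap replicate 1 together (-0.67, adjusted p = 0.0482). The interaction was -0.45 and was not called (adjusted p = 0.349).

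Both Pik3r1 promoters are shown because the gene was lower in every Klf3-deficient array. The first lies at chr13:101768218-101768337 and the second at chr13:101692631-101692750, each 120 bases on the minus strand (RefSeq, GRCm38.p6). Capitals mark GGGTG, the reverse complement of CACCC, 10 bases before the first start, and TTATC, the reverse complement of GATAA, 46 bases before the second.
Pik3r1 promoter 1: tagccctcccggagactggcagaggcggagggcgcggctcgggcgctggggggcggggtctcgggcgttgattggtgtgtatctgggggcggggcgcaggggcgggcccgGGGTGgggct
Pik3r1 promoter 2: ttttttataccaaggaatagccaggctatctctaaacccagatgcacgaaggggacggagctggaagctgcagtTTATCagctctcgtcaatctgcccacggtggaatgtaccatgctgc
The first promoter held another CACCC match at 168 bases, outside the stretch printed. The cluster does not show which promoter was used.

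Tfr2, a transferrin receptor that binds the erythropoietin receptor and tunes its response to iron, read 8.71, 8.57, 8.17 and 8.31 in wild-type and 8.40, 8.39, 8.31 and 8.50 in Klf8-trap replicates. It read 8.18, 8.11 and 8.03 in Klf3-null and 7.96, 7.95, 8.06 and 8.14 in doubly mutant replicates. All doubly mutant arrays lay below the wild-type arrays, by a narrow margin. Tfr2 fell with Klf3 loss averaged over both backgrounds (1.28-fold; -0.35 ± 0.08; limma adjusted p = 0.0194), with 6 of 7 Klf3-deficient arrays below all 8 intact ones. That call was lost without wild-type replicate 2 (adjusted p = 0.051), Klf3-null replicate 2 (0.0553) or Klf3-null replicate 3 (0.0698), among male arrays alone (0.216) and with the macrophage marker mean as a covariate (-0.29, 0.191). In doubly mutant against wild-type arrays it fell 1.33-fold (-0.41 ± 0.10; adjusted p = 0.0414), a call made in 12 of 28 alternatives. It was kept without wild-type replicate 3 or 4, Klf8-trap replicate 1 or doubly mutant replicate 4 and lost without any other single array, at up to 0.135 (without wild-type replicate 2). It was also lost with the macrophage covariate (-0.30, 0.331), with its groups fitted alone (0.168), among males (0.128), over all clusters of the table (0.0687) and with an intensity trend (0.0505).

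Ptpn6 encodes SHP-1, the phosphatase that docks on the receptor and removes phosphate from JAK2. It read 8.75, 8.57, 8.65 and 8.68 in wild-type and 8.42, 8.31, 8.28 and 8.43 in Klf8-trap replicates. It read 8.49, 8.50 and 8.19 in Klf3-null and 7.98, 7.94, 7.98 and 8.48 in doubly mutant replicates. Every mutant array lay below the wild-type arrays. Ptpn6 fell 1.48-fold in doubly mutant arrays (-0.57 ± 0.11; limma adjusted p = 0.0106), a call made without each single array too. Without doubly mutant replicate 4 it also passed against Klf8-trap arrays (-0.40, adjusted p = 0.0146), against Klf3-null arrays (-0.43, 0.0317) and with Klf3 loss averaged (-0.33, 0.0064). With its groups fitted alone the doubly mutant call was lost (0.0684), and with the macrophage marker mean (9.11 in wild type, 8.05 in doubly mutant arrays) as a covariate the difference was -0.22 (adjusted p = 0.378). The part of these cells in the result was not tested. That covariate also ended the calls of Tfr2, Pim2 and Trib3 in this contrast. With it the Tfr2 difference was smaller (-0.30 against -0.41). Those of Pim2 (-0.52 against -0.41) and Trib3 (0.86 against 0.70) were larger, though not called.

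Pim2, a kinase of the same family as Pim1, read 7.47, 7.32, 7.23 and 7.37 in wild-type and 7.45, 7.09, 7.07 and 6.89 in Klf8-trap replicates. It read 7.06, 7.03 and 7.06 in Klf3-null and 6.98, 7.04, 6.85 and 6.87 in doubly mutant replicates. The doubly mutant arrays lay below all wild-type arrays. Pim2 fell 1.33-fold (-0.41 ± 0.10; limma adjusted p = 0.0386), whereas the Pim1 difference of -0.25 did not pass; the difference between both was not tested. The call was made in 10 of 28 alternatives. It was kept without Klf8-trap replicate 1 or 4 or doubly mutant replicate 1 or 2 and lost without any other single array, at up to 0.128 (without wild-type replicate 1). It was also lost with the macrophage (0.0974) or sex covariate (0.0945), among males (0.096), over all clusters of the table (0.0657), under quantile normalization (0.064) or centring on array medians (0.0539), and with its groups alone (0.0517).

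Trib3, a pseudokinase that erythropoietin induces and that also answers to cell stress, read 6.69, 6.56, 6.29 and 6.82 in wild-type and 6.82, 6.49, 6.49 and 6.74 in Klf8-trap replicates. It read 6.82, 6.81 and 6.82 in Klf3-null and 7.07, 7.68, 7.03 and 7.38 in doubly mutant replicates. The doubly mutant arrays were above all others, and 4 arrays of the other groups held the identical deposited value of 6.82. Trib3 rose by 0.70 ± 0.14 against wild type (limma adjusted p = 0.0114), a call lost with its groups alone (0.0802), among males (0.0551) and with the macrophage covariate (0.0547). Against Klf8-trap arrays it rose 1.58-fold (0.66 ± 0.14; limma adjusted p = 0.0178), a call lost without Klf8-trap replicate 2 (0.0696) or 3 (0.0618), with its groups alone (0.113) and with the macrophage covariate (0.0536). Averaged over both backgrounds the rise was 0.44 ± 0.10 (adjusted p = 0.0331), kept in 14 of 27 alternatives. It was lost without wild-type replicate 1, 2 or 3, Klf8-trap replicate 2 or 3, any Klf3-null replicate or doubly mutant replicate 4, at up to 0.0876 (without Klf3-null replicate 3), among males (0.171), with the sex (0.0838) or macrophage covariate (0.0654) and over all clusters of the table (0.0687). Csf3r, the granulocyte colony-stimulating factor receptor, lay below the array medians in every group and was called higher in doubly mutant than in Klf8-trap arrays (adjusted p = 0.00332), with no size given for so dim a cluster.

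**Figure D5:**
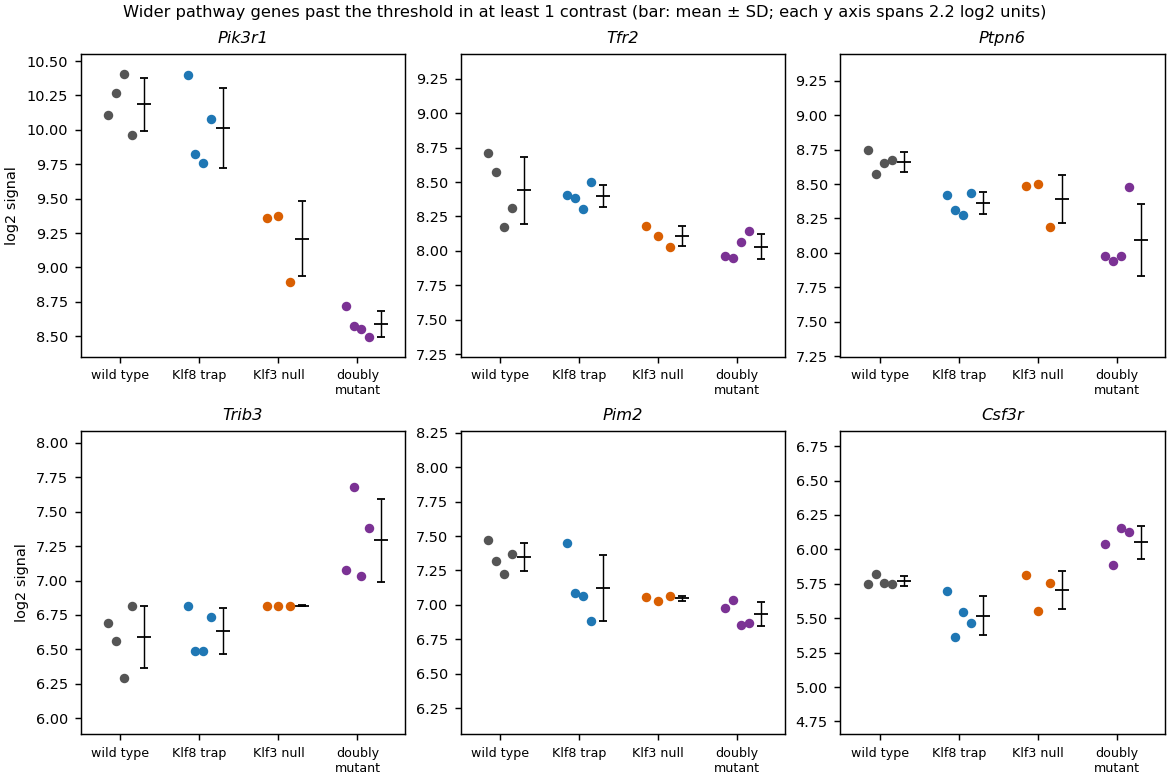
Log2 signal (y axis, 2.2 log2 units in every panel) on each array, by genotype (x axis), of the 6 wider pathway genes that passed the threshold in at least 1 contrast. Points are arrays in replicate order and bars are the mean ± SD; Pik3r1 is the gene in which all 7 Klf3-deficient arrays lie below all 8 others, and Trib3 and Csf3r are highest in doubly mutant arrays.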

How the data were processed

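The deposited table holds the authors' log2 signals of transcript clusters. The submitters' processing notes name RMA and Partek, without versions. For the array's build and probe positions, nothing is given in the sources used here. All columns of the table belonged to the 15 samples. Of 35556 clusters, 21789 carried 1 gene symbol and 1621 several in the platform annotation, and these 23410 were tested. The 11 member clusters matched RefSeq symbols by gene ID.

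The values were used as deposited. The 15 arrays entered a single linear model of the 4 genotype means (limma 3.58.1 under R 4.3.3, lmFit and eBayes without trend, prior degrees of freedom 4.27), with Benjamini-Hochberg adjustment over the 23410 clusters of each of 7 contrasts and a two-sided threshold of 0.05. The interaction is the effect of Klf3 loss in Klf8-trap arrays minus that in the others. Exact two-sided permutation of the arrays was added for single genes, where p cannot go below 0.0571 for 3 against 4 arrays, 0.0286 for 4 against 4 and 0.000311 for 7 against 8. The last pooled the arrays regardless of Klf8 genotype, unlike the average over both backgrounds. These exact p-values were not adjusted over genes or contrasts. The procedure was tested on simulated data. Members, lists and rules were chosen with earlier results of these data known. All 10 members were to be named, each by its brightest cluster, and from the wider lists every gene past the threshold, with the 3 genes most correlated with Epor. Replicate numbers paired arrays by the data in 1 comparison: all 4 same-numbered pairs of Klf8-trap and doubly mutant arrays had deviations correlated above 0.1 (0.114 to 0.534). In all, 28 alternatives were run. Promoter sequences are from RefSeq (GRCm38.p6). The number of arrays limits the precision.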

Additional observations from a re-analysis of the deposited data

Results flagged for a closer look

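Of 45 groups of 4 arrays examined over 15 genes, 3 held an array set apart from the rest of its group by most of the group's range (Dixon's criterion), and chance gives about 1 in 20. Bcl2l1 read 12.20 in Klf8-trap replicate 1 and 11.81 to 11.87 in the other 3 arrays, and over all clusters that array had a mean correlation of 0.988 to its group mates. Ptpn6 read 8.48 in doubly mutant replicate 4 and 7.94 to 7.98 in the others, and that array also had the most macrophage marker signal of its group (8.90). Csf3r read 5.82 in wild-type replicate 2 and 5.75 to 5.76 in the others, below the array medians. Their causes were not tested.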

How the results depend on the processing

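The call of 0 receptor pathway genes held in most alternatives. Shares in parentheses are those of all clusters in the same fit. In doubly mutant against wild-type arrays, 0 to 2 passed with single arrays left out (2 without doubly mutant replicate 1, 5.93%), 1 with the macrophage covariate (1.75%) and 3 without doubly mutant replicate 1 and Klf8-trap replicate 1 together (9.65%). In Klf8-trap arrays 2 passed with array weights (17.4%) and 1 without those arrays together (12.5%), and for Klf3 loss averaged 1 passed with array weights (3.71%). Of the 59 wider genes, the doubly mutant contrast called 5 (3.3%), and 3 to 6 with single arrays left out (1.63% to 5.93%). It called 3 over all clusters of the table (1.79%), 1 with the macrophage covariate (1.75%) and 1 with its 2 groups fitted alone (1.26%). Klf8-trap against wild type called 0, and 0 to 5 with single arrays left out (5 without Klf8-trap replicate 1, 7.19%), 10 with array weights (17.4%) and 6 without those arrays together (12.5%). Doubly mutant against Klf8-trap called 3, and 2 to 9 (9 without doubly mutant replicate 4, 7.59%), 5 with array weights (5.47%), 7 among males (6.88%) and 1 with its groups alone (0.803%). Doubly mutant against Klf3-null called 0, and 0 to 1 (1 without doubly mutant replicate 4, 2.07%), with 1 without those arrays together (0.692%). The interaction called 0, and 0 to 2 (2 without Klf8-trap replicate 1, 3.07%), 1 with array weights (5.05%) and 1 without those arrays together (3.19%). Klf3 loss averaged called 3 (2.38%), and 1 to 4 with single arrays left out (1.68% to 3.07%).

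With replicate number as a block, the wider counts were 5 in doubly mutant against wild type (4.21% of all clusters) and 3 against Klf8-trap arrays (4.03%). No call of a named gene changed. In the other pairs of groups, not every same-numbered pair was correlated above 0.1 (mean correlations from -0.0447 to 0.103, single pairs from -0.276 to 0.299). With so few pairs, this does not show that pairing is absent there. Klf3-null and doubly mutant pairs ran from 0.0707 to 0.158. Over single genes, 2806 of the recomputed differences kept their side of the threshold, 35 newly passed, 62 no longer passed and 0 changed sign among those called. Fits of the groups alone do not apply to the interaction or the average, and Csf3r has no value where dim clusters were left out. The causes were not tested. Arrays give no detection call, so signals near the array medians are the least certain.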
